A study of Mus musculus with 3 samples.

Results

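Fat absorption and chylomicron genes were followed in the intestine of mouse pups. The 10 genes Apoa4, Apoa1, Apob, Apoc3, Mttp, Fabp1, Fabp2, Cd36, Dgat1 and Mogat2 were taken by symbol, and all 10 were among the 21983 genes of the deposited count table. Messenger RNA levels were read from 3 libraries, 1 per group, all from wild-type pups. For the PCI34051+NEC library, necrotizing enterocolitis (NEC), in which the bowel of the newborn is inflamed and dies, was modelled in pups that also received PCI34051, an HDAC8 inhibitor, at 10 mg/kg per day for 5 days. The NEC library came from the same model with PBS in place of the inhibitor. In both, 40 µl of 33% formula was fed every 4 h for 96 h, and every 12 h the pups breathed 99.9% nitrogen for 100 s and were then kept at 4 °C for 10 min. The control library came from pups left with the dam, given PBS, and spared hypoxia and cold. The labels give no strain, no pup age, no gut segment, and no number of pups per library.

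Fat in milk or formula reaches the enterocyte as fatty acids and monoacylglycerol. Inside the cell these are bound by fatty acid binding proteins, joined again into triglyceride at the endoplasmic reticulum, and loaded by the microsomal transfer protein onto apolipoprotein B. The particle, a chylomicron, gains apolipoproteins A-I, A-IV and C-III and leaves through lymphatic vessels. In the suckling intestine this pathway carries most of the energy of the diet, since milk is rich in fat.

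Since each group has a single library, the spread between pups is unknown, no test was run, and the differences below are between libraries. Levels are CPM, counts per 1000000 counts of the library, scaled by the trimmed mean of M-values (TMM). Folds given as log2 were taken from log2(CPM + 1), which understates the difference of low genes. Ratios are plain ratios of CPM with 95% intervals in parentheses that cover counting error only. A gene was measured in a comparison at 1 CPM or more in either library, and called higher or lower at a 2-fold difference.

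The libraries held 16497580 (PCI34051+NEC), 10650638 (NEC) and 15076413 (control) counts. The NEC library stood apart from the others in 3 respects. Mitochondrially encoded genes took 32.4% of its counts, against 3.73% in the PCI34051+NEC and 4.88% in the control library. The 6 smooth muscle markers summed to 10561 CPM there, against 1258 CPM with PCI34051 and 1228 CPM in control. The Y-linked gene Eif2s3y had 0 counts in it, against 1134 and 999 in the PCI34051+NEC and control libraries, and the labels give no sex. In PCI34051+NEC against control the NEC library enters only through the scaling factors, and the count of called members was 7 with or without it. All 12 epithelial markers were at 1 CPM or more in each library. They summed to 11766 CPM in the PCI34051+NEC, 6073 CPM in the NEC and 9987 CPM in the control library. In tissue RNA, fewer cells of a type and less RNA per cell cannot be told apart.

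The promoters of 3 members are shown because they cover the binding proteins Fabp1 and Fabp2, which belong to one protein family and differed widely in control level, and the core chylomicron protein Apob. Each window is the 250 bases before the RefSeq start on build GRCm38.p6 (mm10), 5′ to 3′, all on the plus strand. Fabp1 lies at chr6:71199629-71199878, Fabp2 at chr3:122894822-122895071 and Apob at chr12:7977427-7977676. Capitals mark matches, on either strand, to the short motifs spelled out after them.
Fabp1: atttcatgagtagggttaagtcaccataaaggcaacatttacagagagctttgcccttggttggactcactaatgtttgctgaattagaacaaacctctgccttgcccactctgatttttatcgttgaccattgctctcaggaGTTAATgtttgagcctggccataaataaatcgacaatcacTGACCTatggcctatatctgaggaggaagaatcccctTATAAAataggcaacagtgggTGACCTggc
Fabp2: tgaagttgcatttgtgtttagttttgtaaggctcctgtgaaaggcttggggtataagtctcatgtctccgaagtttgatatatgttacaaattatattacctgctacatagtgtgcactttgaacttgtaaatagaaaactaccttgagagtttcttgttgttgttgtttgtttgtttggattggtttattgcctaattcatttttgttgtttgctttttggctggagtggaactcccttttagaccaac
Apob: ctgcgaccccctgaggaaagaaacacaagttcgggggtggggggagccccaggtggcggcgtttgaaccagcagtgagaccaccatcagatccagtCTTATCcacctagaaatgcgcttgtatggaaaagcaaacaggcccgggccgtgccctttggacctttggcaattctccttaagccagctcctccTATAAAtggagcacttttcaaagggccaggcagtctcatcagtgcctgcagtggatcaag

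Of the 10 members, 7 had a window in the RefSeq table. Both strands were searched for 5 motifs. TATAAA is the TATA box, and CAAAGTC is a core of the site of HNF4. GTTAAT is part of the site of HNF1. GATA factors bind GATAAG, and AGGTCA is part of the site of many nuclear receptors. Of these, Fabp1 held 4 matches: TATAAA from base -30, GTTAAT from -107, and AGGTCA on the minus strand from -67 and from -9, counted from the start. Apob held TATAAA from -60 and GATAAG on the minus strand from -154. Cd36 held 1 AGGTCA, and Fabp2, Apoa1, Apoa4 and Mttp held none of the 5. Among 32851 windows of the same length, TATAAA was found in 12.4%, CAAAGTC in 3.84%, GTTAAT in 6.43%, GATAAG in 6.55% and AGGTCA in 14%. The RefSeq starts of Cd36 and Mttp, where their windows end, lie 52905 and 1550 bases from the outermost GENCODE start of the gene. Those of Apoa4, Fabp1, Apoa1 and Apob lie 148, 52, 50 and 29 bases downstream of the GENCODE start, which therefore falls inside the window, and that of Fabp2 lies 0 bases from it. In Fabp1 the matches from -30 and -9 are downstream of the GENCODE start. A match is a run of letters and not a bound site.

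Together the 10 genes took 9.58% of all counts in the PCI34051+NEC library, 2.0% in the NEC library and 4.09% in the control library. All counts here include those of mitochondrially encoded genes, 32.4% of the NEC library against 3.73% and 4.88% of the PCI34051+NEC and control libraries. This lowers the NEC shares of all other genes. Apoa4 alone was the most abundant gene of the PCI34051+NEC library, at 5.42% of its counts (5.41 to 5.43, Wilson interval), and Apoa1 was second. Apoa4 took 1.01% of counts in the NEC library, where its rank was 7, and 2.12% in the control library, where it held the rank of 3. Per kilobase of exon, the PCI34051+NEC library had 32381 CPM of Apoa4, 25101 of Apoa1, 2664 of Fabp2, 839 of Apoc3 and 658 of Fabp1. On the same per-kilobase scale Mttp was at 598, Apob at 403, Mogat2 at 172, Dgat1 at 163 and Cd36 at 31.3 CPM. The exchangeable apolipoproteins A-IV and A-I thus led the levels, and the fatty acid translocase Cd36 was lowest of the 10 in the PCI34051+NEC and NEC libraries.

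**Figure D1:**
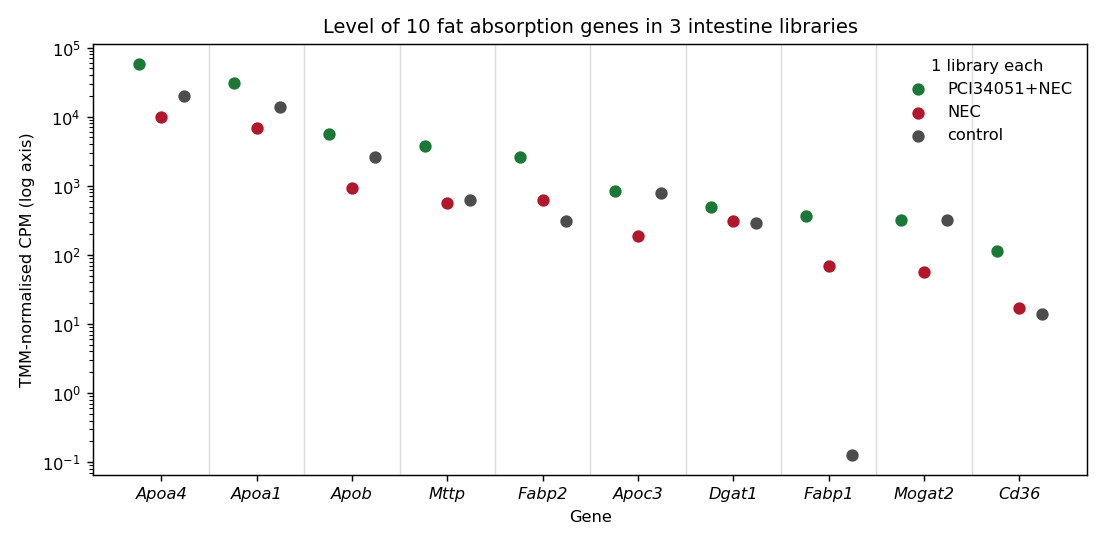
TMM-normalised CPM on a log axis for the 10 genes, 1 point per library, in order of level in the PCI34051+NEC library. The PCI34051+NEC point is the highest for every gene but Mogat2, and Fabp1 in the control library lies at 0.126 CPM, far below every other point.

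In PCI34051+NEC against NEC, 9 of the 10 stood at least 2-fold higher and none lower, where 25.0% of all 14410 measured genes were called higher and 25.6% lower. Their median log2 fold was 2.43, against 0.01 for all measured genes. The 9 called ratios lay in a narrow band, between 4.17 and 6.64. Between NEC and control, 1 gene was called higher and 4 lower, where 24.2% of 14627 measured genes were called higher and 22.9% lower, so the share called was near that of all genes. Their median log2 fold was -0.58, against -0.03 for all genes, and the ratios ran from 0.177 (Mogat2) to 539 (Fabp1). Set against control, 7 genes of the PCI34051+NEC library were called higher and none lower, where 6.55% of 13652 measured genes were called higher and 6.55% lower. Their median log2 fold was 1.36, against 0.00 for all genes. Any pair of these comparisons shares 1 library.

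**Figure D2:**
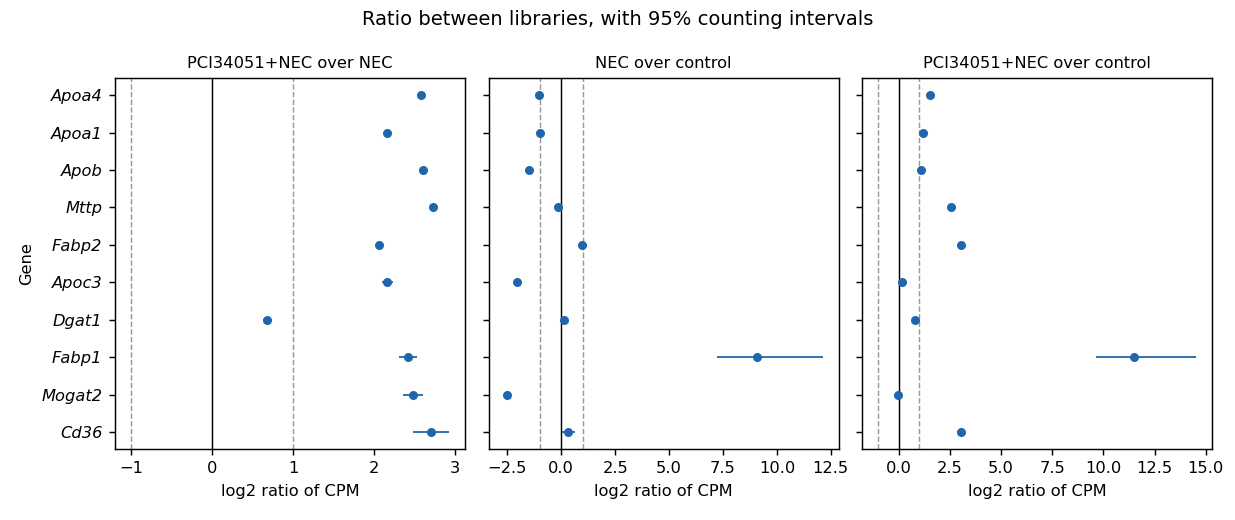
Log2 ratio of CPM (x axis, 1 scale per panel) for the 10 genes in the 3 comparisons. Bars are 95% counting intervals, many of them narrower than the point, and dashed lines mark 2-fold. In the first panel 9 genes sit between 4.17-fold and 6.64-fold, with Dgat1 apart at 1.61-fold.

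Cd36, Fabp1 and Fabp2, which take up and bind fatty acids, all had their lowest level in the control library. Cd36, a receptor that takes up long-chain fatty acids, had 112 CPM in the PCI34051+NEC, 17.3 CPM in the NEC and 13.8 CPM in the control library (1710, 189 and 219 counts). The NEC and control values lie close together, with a ratio of 1.25 (1.03 to 1.53), and the PCI34051+NEC value was 6.51-fold above NEC (5.60 to 7.60) and 8.15-fold above control (7.08 to 9.43). Cd36 is also made by endothelium, macrophages and adipocytes. The 6 endothelial markers summed to 126, 138 and 105 CPM in the PCI34051+NEC, NEC and control libraries, and the 6 macrophage markers to 234, 166 and 492 CPM. Of the 7 adipocyte markers, Adipoq, Plin1, Lep and Cfd had 0 counts in the PCI34051+NEC and control libraries and 14, 20, 3 and 2 counts in the NEC library. The 7 together summed to 417, 258 and 213 CPM, of which Cidec, a gene also listed among the droplet proteins, gave 318, 84.3 and 144 CPM. Per count of the endothelial gene Pecam1, Cd36 stood at 3.37 (3.05 to 3.73) in the PCI34051+NEC library, at 0.424 (0.356 to 0.503) in the NEC library and at 0.377 (0.321 to 0.441) in the control library. The part of these other cell types in the Cd36 values was not tested.

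Fabp1, the liver-type fatty acid binding protein of enterocytes and hepatocytes, had 5537 counts in the PCI34051+NEC, 743 in the NEC and 2 in the control library, or 364, 67.9 and 0.126 CPM. The control count is below the floor of 3 counts used for a gene at 0, which corresponds to 0.189 CPM there. The ratio over control was 2891 (800 to 23874) with PCI34051 and 539 (149 to 4461) in NEC, wide bounds that come from the 2 control counts. Fabp2, the intestinal-type protein, had 2571 CPM in the PCI34051+NEC, 616 CPM in the NEC and 314 CPM in the control library. It was 4.17-fold higher with PCI34051 than in NEC (4.07 to 4.28) and 8.19-fold higher than in control (7.95 to 8.43), and in NEC it was 1.96-fold above control (1.89 to 2.03), just short of a call. With epithelial scaling the log2 folds of NEC over control were calls for both Fabp2 (1.89, in place of 0.97) and Cd36 (1.22, in place of 0.31). The 2 binding proteins differed in balance as well: there were 7.07 counts of Fabp2 per count of Fabp1 with PCI34051 (6.87 to 7.27), 9.08 in NEC (8.41 to 9.80) and 2496 in control (690 to 20612). No other GENCODE transcript matched Fabp1 or Fabp2 at 80% identity over 100 bases or more, so no near-identical transcript was found that could take their reads.

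Of 5 genes known for the upper small intestine, only Gata4 had the order of Fabp1. Gata4, a transcription factor of duodenum and jejunum, had 46.4 CPM in the PCI34051+NEC, 8.95 CPM in the NEC and 3.21 CPM in the control library, the same order as Fabp1. Lactase (Lct) stood at 813, 84.6 and 192 CPM. The iron exporter Slc40a1 went another way, at 578, 53.1 and 997 CPM. The 5 upper intestine markers summed to 1505 CPM with PCI34051, 159 CPM in NEC and 1254 CPM in control. All 5 were at least 2-fold higher in PCI34051+NEC than in NEC, as were 2 of 3 measured ileum and 2 of 3 measured colon markers. In that comparison 25.0% of all measured genes were called higher. The 3 ileum markers summed to 1145, 396 and 833 CPM. The 6 colon markers summed to 111, 67.0 and 80.6 CPM, with Car1, Hoxd13 and Hoxb13 at 0 counts in each library. Liver markers, which bear on Fabp1 and the apolipoproteins, summed over 10 genes to 61.5 CPM with PCI34051, 174 CPM in NEC and 77.1 CPM in control. Alb, which hepatocytes make in great amount, was at 0.394, 100.4 and 9.31 CPM. The fibrinogen genes Fga (42.3, 12.0 and 36.7 CPM) and Fgb (15.4, 12.7 and 20.7 CPM) gave most of the sum with PCI34051 and did not share the order of Alb. The part of gut segment or of liver tissue in the differences was not tested.

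The 2 members of triglyceride synthesis differed in pattern. Mogat2 joins monoacylglycerol to a fatty acid, the main route in the enterocyte. It had 315 CPM in the PCI34051+NEC, 56.3 CPM in the NEC and 319 CPM in the control library. The NEC value was 5.67-fold below control (5.21 to 6.17), and the PCI34051+NEC value was 5.60-fold above NEC (5.14 to 6.10) while differing from control by a ratio of 0.988 (0.949 to 1.03), within counting error. Dgat1, which completes triglyceride from diacylglycerol, had 499.6 CPM in the PCI34051+NEC, 311 CPM in the NEC and 288 CPM in the control library. It was the member least apart in PCI34051+NEC against NEC, at 1.61-fold (1.54 to 1.67), and its NEC to control ratio was 1.08 (1.03 to 1.13). Neither direction held under every scaling. The log2 fold of 0.68 over NEC was -0.16 with epithelial scaling, and that of 0.11 in NEC over control was 1.03, a call, with epithelial scaling and -0.04 with the trend with GC content and length removed. There were 1.58 counts of Dgat1 per count of Mogat2 with PCI34051 (1.53 to 1.64), 5.52 in NEC (5.06 to 6.02) and 0.903 in control (0.867 to 0.940), a ratio that no scaling between libraries can alter. Dgat2, an enzyme of the same step that is unrelated to Dgat1 in sequence, stood with Mogat2 and not with Dgat1, at 1655, 290 and 1105 CPM. Counts of Dgat1 per count of Dgat2 were 0.302 with PCI34051 (0.294 to 0.310), 1.07 in NEC (1.02 to 1.12) and 0.261 in control (0.253 to 0.270).

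Both members that form the particle, Mttp and Apob, were over 6-fold higher with PCI34051 than in NEC. Mttp, the large subunit of the transfer protein that loads lipid onto apolipoprotein B, had 3713 CPM in the PCI34051+NEC, 559 CPM in the NEC and 631 CPM in the control library. Its ratio was 6.64 (6.47 to 6.82) over NEC and 5.88 (5.76 to 6.01) over control, and NEC to control was 0.886 (0.858 to 0.915). That last log2 fold of -0.18 turned to 0.74 when libraries were scaled to the epithelial markers and to 0.04 with the trend with GC content and length removed. Apob, the structural protein of the chylomicron, had 5615 CPM in the PCI34051+NEC, 920 CPM in the NEC and 2614 CPM in the control library. It was 6.10-fold higher with PCI34051 than in NEC (5.98 to 6.23), 2.15-fold higher than in control (2.12 to 2.17), and 2.84-fold lower in NEC than in control (2.78 to 2.90). Its log2 fold of NEC over control, -1.51, was -0.59 with epithelial scaling, which ends the call. That of PCI34051+NEC over control, 1.10, was 0.91 with total count scaling, 0.84 with epithelial scaling and 0.83 with the trend with GC content and length removed, each short of a call. Counts of Apob per count of Mttp were 1.51 with PCI34051 (1.5 to 1.53) and 1.65 in NEC (1.59 to 1.70), against 4.14 in control (4.05 to 4.23). The ratios of both libraries of the model lie far closer to each other than to that of the dam-fed library. Mttp shares 457 exonic bases with Trmt10a on the opposite strand, which itself had 30, 25 and 31 counts.

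The 3 apolipoprotein genes Apoa1, Apoc3 and Apoa4 lie side by side on chromosome 9 (46228580 to 46230466, 46232933 to 46235636 and 46240696 to 46243459, mm10, with Apoc3 on the minus strand). Apoa4 had 58772 CPM in the PCI34051+NEC, 9794 CPM in the NEC and 20142 CPM in the control library, 6.0-fold higher with PCI34051 than in NEC (5.96 to 6.04). In NEC it was 2.06-fold below control (2.04 to 2.07), a log2 fold of -1.04 that was -0.12, and no longer a call, with epithelial scaling. Apoa1, the main protein of high-density lipoprotein, had 31024, 6947 and 13701 CPM, and its 1.97-fold lower level in NEC than in control (1.96 to 1.99) was just short of a call. That log2 fold of -0.98 was -0.06 with epithelial scaling. It was a call with total count scaling (-1.02) and with the trend with GC content and length removed (-1.28). The Apoa1 log2 fold of 1.18 in PCI34051+NEC over control, a call, was 0.99 with total count scaling and 0.92 with epithelial scaling, both short of one. Apoc3, an inhibitor of triglyceride clearance, had 851, 190 and 778 CPM, 4.10-fold below control in NEC (3.92 to 4.30). With PCI34051 it was 4.49-fold above NEC (4.29 to 4.70) and 1.09-fold above control (1.07 to 1.12), a log2 fold of 0.13 that was -0.06 with total count scaling and -0.13 with epithelial scaling. The neighbours did not keep one ratio: counts of Apoa1 per count of Apoc3 were 36.5 with PCI34051 (35.8 to 37.1) and 36.6 in NEC (35.1 to 38.3), against 17.6 in control (17.3 to 17.9). Apoa4 per Apoa1 was 1.89 with PCI34051 (1.89 to 1.90), 1.41 in NEC (1.40 to 1.42) and 1.47 in control (1.46 to 1.48). The fourth gene of this cluster, Apoa5, had 6, 10 and 6 counts. Apoa4 overlaps an antisense gene, Gm10680, over 632 exonic bases, which is not a row of the table; whether strand was used in counting is not given in the sources used here.

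By order of level, the members fell into 3 sets of 5, 4 and 1. PCI34051+NEC was highest and NEC lowest for Apoa4, Apoa1, Apob, Apoc3 and Mttp, an order that 23.5% of 14718 genes measured in any library shared. PCI34051+NEC was highest and control lowest for Fabp1, Fabp2, Cd36 and Dgat1, an order that 6.85% of those genes shared. Mogat2 had control highest and NEC lowest, as did 20.1% of genes, but its control and PCI34051+NEC values differ by less than counting error. NEC and control values of Mttp and Dgat1 lie within 1.13-fold and 1.08-fold of each other, and those of Cd36 differ by 1.25-fold (1.03 to 1.53). PCI34051+NEC and control values of Apoc3 differ by 1.09-fold, and their order turns with total count and with epithelial scaling. For all of these genes the order rests on a small difference.

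Measured against epithelial genes of the same library, the comparisons with NEC took another form. Epcam, an epithelial adhesion protein, was at 2797 CPM in the PCI34051+NEC, 404 CPM in the NEC and 2731 CPM in the control library. Vil1, which encodes the brush border protein villin, was at 983, 492 and 1015 CPM. Per count of Epcam, no member was at least 2-fold higher in PCI34051+NEC than in NEC and 1, Dgat1, was at least 2-fold lower, with 0.179 counts against 0.768. Per count of Vil1, 9 of the 10 were at least 2-fold higher in PCI34051+NEC than in NEC, by up to 3.32-fold (Mttp). Between NEC and control, 8 members were at least 2-fold higher and none lower per count of Epcam. Per count of Vil1, 4 were higher and 1 lower. Epcam itself had a log2 fold of -2.75 in NEC over control, where the median of all measured genes was -0.03. In PCI34051+NEC over NEC these were 2.79 and 0.01. Dividing by Epcam therefore moves all genes, up in the former comparison and down in the latter. Shares of all genes per count of Epcam or Vil1 were not computed, so these counts of members have no background. For PCI34051+NEC against control, both denominators gave 7 members higher and none lower. How far the amount of epithelium enters the comparisons with NEC therefore depends on the marker. The 12 markers did not keep together in NEC against control: 6 were at least 2-fold lower, 3 higher (Krt19, Esrp1 and Krt20), and their log2 folds ran from -2.75 to 3.53.

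**Figure D3:**
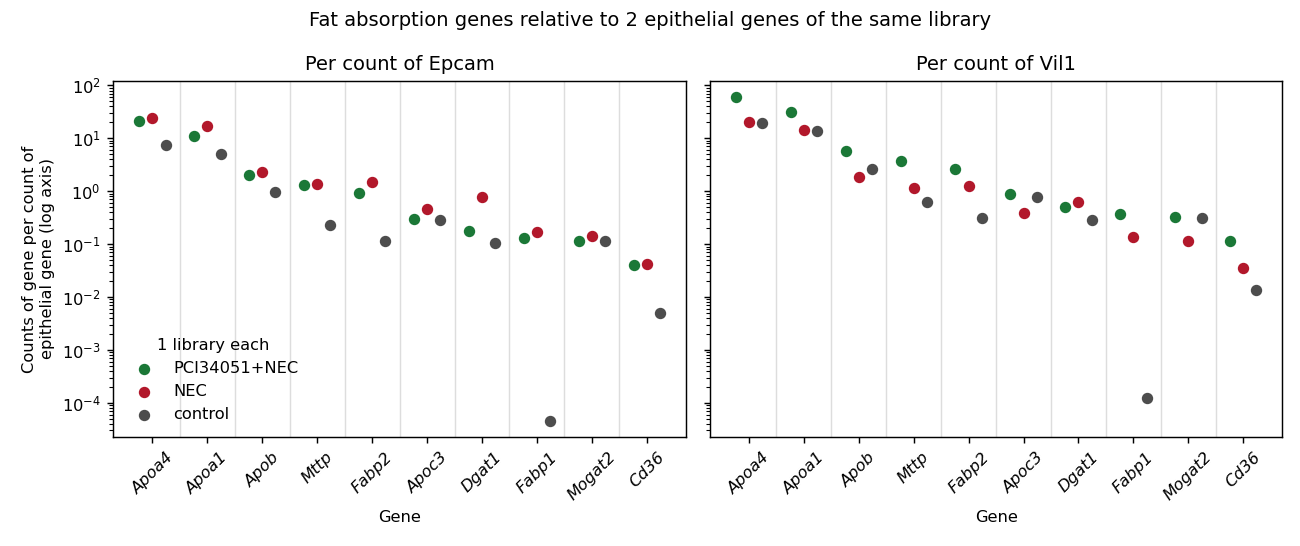
Counts of each member per count of Epcam (left) or Vil1 (right) in the same library, on log axes, 1 point per library. Per Epcam the PCI34051+NEC and NEC points lie close for every gene but Dgat1, and per Vil1 the PCI34051+NEC points stand above the NEC points for every gene but Dgat1.

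The wider pathway was described with 9 lists of related genes, 110 genes in all besides the members. For PCI34051+NEC against NEC, 52 of 97 measured stood at least 2-fold higher and 14 lower (53.6% and 14.4%), with a median log2 fold of 1.15. Between NEC and control, 15 of 96 were higher and 28 lower (15.6% and 29.2%), with a median of -0.34. For PCI34051+NEC against control, 26 of 93 were higher and 4 lower (28% and 4.3%), with a median of 0.50. Of all measured genes, 25.0% were called higher and 25.6% lower in the first of these comparisons, 24.2% and 22.9% in the second, and 6.55% and 6.55% in the third, with medians of 0.01, -0.03 and 0.00.

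Chylomicron assembly and export genes stood close to the members. Of 17 measured, 12 were at least 2-fold higher in PCI34051+NEC than in NEC and none lower, with a median log2 fold of 1.78. P4hb, the small subunit that pairs with Mttp, had 5318 CPM with PCI34051, 938 CPM in NEC and 2283 CPM in control. Sar1b, the GTPase of the vesicles that carry chylomicrons out of the endoplasmic reticulum, had 233, 44.4 and 113 CPM, and Mia2, a cargo receptor of the same exit sites, had 352, 75.5 and 154 CPM. Pla2g12b, which acts in lipoprotein lipid loading in mice, had 124, 22.3 and 57.1 CPM. Between NEC and control, 10 of the 17 were at least 2-fold lower and none higher, with a median of -1.05. A1cf, the partner of Apobec1 in Apob mRNA editing, was the farthest apart, at 7.21 CPM in NEC and 36.6 CPM in control. Over control, PCI34051+NEC had 5 higher and none lower, led by the vesicle coat gene Sec24d at 148 and 53.0 CPM.

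Among 8 genes of brush border uptake and efflux, 6 were at least 2-fold higher in PCI34051+NEC than in NEC and none lower. Abcg8, a subunit of a sterol exporter, had 509.5 CPM with PCI34051, 93.7 CPM in NEC and 201 CPM in control. Npc1l1, which takes up cholesterol, had 723, 137 and 480 CPM, and the fatty acid transport protein gene Slc27a4 had 580.5, 122 and 574 CPM. The other two were within 2-fold. Slc27a2 had 22.2, 39.2 and 4.84 CPM, highest in NEC, and Abcg5, the partner subunit of Abcg8, had 360, 335 and 199 CPM. Of 9 genes of fatty acid binding and activation, 6 were higher in PCI34051+NEC than in NEC and 1, Acsl6, was lower. The retinol binding protein gene Rbp2 had 1616, 393 and 585 CPM, the acyl-CoA synthetase gene Acsl3 had 442, 90.3 and 244 CPM, and the sterol carrier gene Scp2 had 243, 58.2 and 135 CPM.

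Of 13 measured genes of glyceride and ester synthesis, 6 were at least 2-fold higher in PCI34051+NEC than in NEC and none lower, with a median log2 fold of 0.96. In NEC against control, 5 were lower, and 1, Gpat4, was higher. Lrat, which makes retinyl esters, stood farthest apart, at 19.4 CPM with PCI34051, 1.37 CPM in NEC and 50.7 CPM in control. Soat1, a cholesterol esterifying enzyme, had 117, 21.5 and 148 CPM, and Gpat3, which starts the glycerol phosphate route, had 75.7, 22.9 and 91.7 CPM. Like Mogat2, these 3 were lowest in NEC and highest in control.

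Of 12 lipid droplet genes, 4 were called higher and 4 lower in PCI34051+NEC than in NEC. The coat protein genes Plin2 (502, 162 and 728 CPM) and Plin3 (814, 186 and 839 CPM) were lowest in NEC, and Cidec, which fuses droplets, had 318, 84.3 and 144 CPM. Plin4, the muscle and fat perilipin, was highest in NEC, at 1.71, 17.4 and 3.27 CPM. Apolipoprotein genes other than the members were mixed: of 7 measured, 4 were at least 2-fold lower in PCI34051+NEC than in NEC and 2 higher, with a median of -1.40. The 2 higher were Apoc2, with 33, 0 and 3 counts, and Apom, at 7.36, 2.74 and 2.89 CPM. Among the lower, Apoa2 had 0.263, 14.3 and 1.20 CPM, Apoc1 had 4.27, 25.8 and 3.40 CPM, and Clu had 7.16, 20.5 and 16.0 CPM. These 3 genes are highest in NEC, as are the liver marker Alb and the smooth muscle marker Myh11 (286, 4215 and 268 CPM). The liver markers were not uniform, since Fga and Fgb had their lowest level in NEC. Of 10 liver markers, 6 were at least 2-fold higher in NEC than in control and 1 lower, against 24.2% and 22.9% of all measured genes. The part of liver and smooth muscle tissue was not tested. Luminal lipases were hardly detected, with 2 of 8 measured, and the 7 pancreatic acinar markers in the table summed to 3.81, 2.65 and 0.440 CPM, with Pnlip, Cel and Cela2a at 0 counts in every library.

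**Figure D4:**
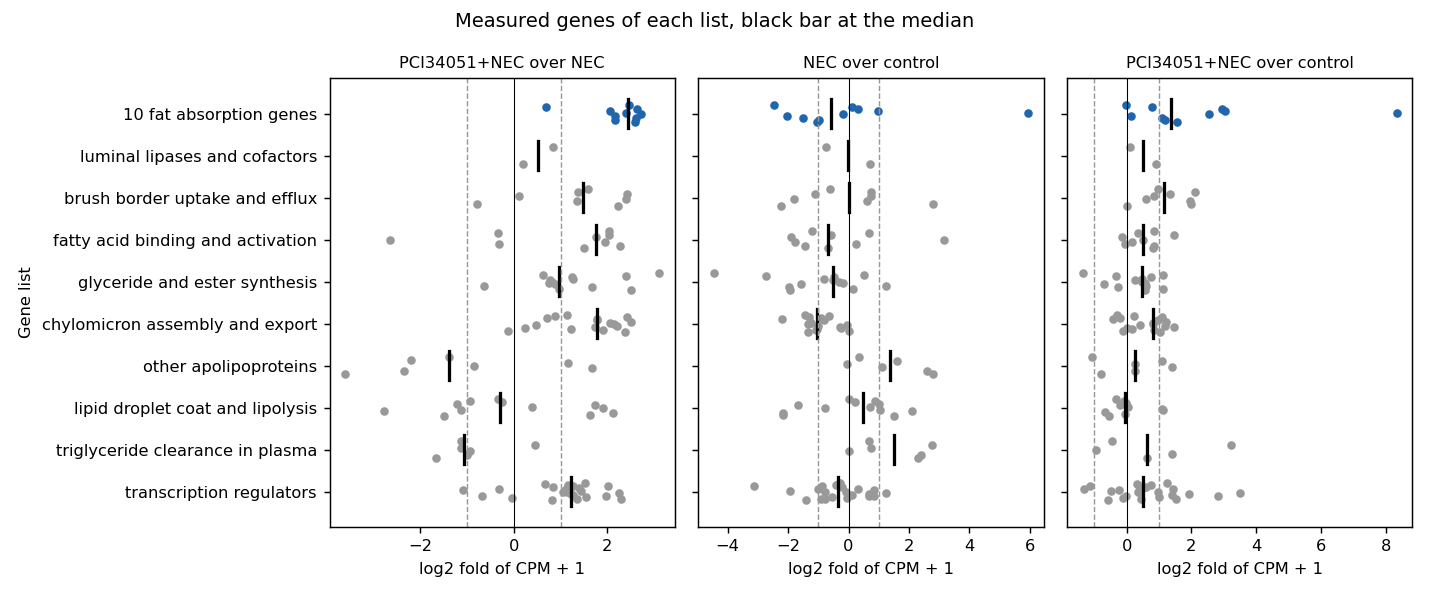
Log2 folds of CPM + 1 for each measured gene of the members (blue) and of the 9 lists (grey) in the 3 comparisons, with a black bar at each list's median and dashed lines at 2-fold. In PCI34051+NEC over NEC the members and the assembly list lie to the right, at medians of 2.43 and 1.78, and other apolipoproteins to the left, at -1.40.

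Regulators of these genes were present in each library. Of 23 measured, 16 were at least 2-fold higher in PCI34051+NEC than in NEC and 1, Nr1h2, was lower, with a median log2 fold of 1.23. In NEC against control 1 was higher (Gata4) and 3 lower (Prdm1, Cdx2 and Hnf4a). In PCI34051+NEC against control 8 were higher and 2 lower (Nr1h3 and Prdm1). Among all measured genes, 25.0% were called higher and 25.6% lower in PCI34051+NEC against NEC. The shares were 24.2% and 22.9% in NEC against control, and 6.55% each way in PCI34051+NEC against control. Hnf4a, a nuclear receptor that drives many enterocyte lipid genes, had 347 CPM with PCI34051, 196 CPM in NEC and 517 CPM in control, so it was highest in control, unlike 9 of the 10 members. Its relative Hnf4g had 124, 24.7 and 42.7 CPM. Creb3l3, a membrane-bound factor of Apoa4 and other lipoprotein genes, had 988, 337 and 493 CPM. Ppara, the fatty acid receptor known to act on Fabp1 and Cd36, had 46.3, 11.1 and 5.73 CPM, the order seen for Fabp1, Fabp2, Cd36 and Dgat1. Ppargc1a, a coactivator of nuclear receptors, had 60.8, 25.3 and 15.4 CPM in that order too. Of the 14718 genes measured in any library, 6.85% shared this order. Prdm1, a repressor that holds the suckling program of the mouse gut, was highest in control, at 58.0, 13.6 and 127 CPM. The part of any of these regulators in the levels of the members was not tested.

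The genes whose pattern lay nearest to that of Apoa4 were looked for among 2803 others with 100 CPM or more in any library. Likeness was the distance between the pairs of log2 folds over control, so it rests on 3 libraries. Nearest were Aqp11 (139, 24.7 and 47.1 CPM, distance 0.14), Plekhh1, Stard5, Rnf186 and Cdc42se2, the last at a distance of 0.196. Of the other members, Apoa1 ranked 36th (distance 0.371) and Apob 108th (0.642), while Fabp1 ranked last.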

How the data were processed

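RNA from mouse intestine was sequenced as 150 bp paired-end reads, per the labels' protocols. The authors deposited 1 table of raw counts per gene symbol, with 1 column per library. Per the submitters' processing notes, mm10 was the build; the sources used here name no aligner, annotation, strand setting or filter. The PCI34051+NEC column was matched as the only one whose heading names both PCI and NEC, since its heading is not the label word for word; every PCI34051+NEC value rests on that match. Gene identifiers, coordinates and exon lengths came from GENCODE M21, which matched 21926 of 21983 symbols, and promoters from RefSeq (GRCm38.p6).

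Counts were scaled over all genes and all 3 libraries with TMM in edgeR 4.0.16 (R 4.3.3), with factors of 0.923 (PCI34051+NEC), 1.03 (NEC) and 1.05 (control). Folds used a pseudocount of 1 CPM, and ratios exact conditional binomial (Clopper-Pearson) intervals, which cover counting error only. Without molecular identifiers, PCR copies are counted as if independent. A count of 0 is set against a floor of 3 counts (0.197, 0.274 and 0.189 CPM). With 1 library per group there is no replicated test. The members and lists were chosen with earlier results of these data known. Genes outside the members were named as up to 4 per list with the largest fold at 5 CPM or more, plus Dgat2, Plin2, Hnf4a, Hnf4g, Creb3l3, Ppara, the marker genes and the 5 genes nearest to Apoa4; Abcg5, Apoa5, Apoc2, Gpat4, Nr1h2, Nr1h3, Trmt10a and Eif2s3y were added after their values were seen, as were some genes described in another comparison than the one that named them. Folds of -2, -1, 1 and 2 put into 50 genes each of simulated NEC and control counts over 21983 genes came back at medians of -1.96, -0.98, 0.97 and 1.99. In the real comparison 24.2% of measured genes were called higher and 22.9% lower. With so few genes changed, as many up as down, the simulation did not test the scaling under differences that wide. Alternatives included DESeq2 1.42.0 size factors; Python 3.11.15 ran the rest.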

Additional observations from a re-analysis of the deposited data

How the results depend on the processing

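The results on the members were recomputed under 13 alternatives, each changing 1 choice: DESeq2 size factors, total counts, TMM without the 50 most abundant and the mitochondrial genes, TMM without the members, scaling to the epithelial markers, removal of the GC content and length trend, a pseudocount of 0.25 or of 4, genes kept without a filter or only from 5 CPM, libraries thinned to 10650638 counts, a threshold of 1.5-fold, and intervals wholly beyond 2-fold. In PCI34051+NEC against NEC, 9 or 10 members were higher under each and none was lower. This did not extend to counts per Epcam alone, a denominator outside the 13, with none at least 2-fold higher and 1 lower. The log2 folds of the epithelial markers ran from -2.44 to 2.79 in this comparison, so the result depends on the markers taken. In PCI34051+NEC against control, 5 to 8 were higher under each and none was lower; with TMM from these 2 libraries alone, a choice made once the data had been seen, 7 were higher. In NEC against control the count was less stable. Scaling to the epithelial markers gave 4 members higher and 2 lower, in place of 1 and 4, and 2 were higher once the trend with GC content and length was removed, after thinning, or at 1.5-fold. That scaling moved the median of all genes by 0.92 in NEC against control, by -0.85 in PCI34051+NEC against NEC and by -0.26 in PCI34051+NEC against control. Total counts moved it by -0.03, -0.14 and -0.18. Of 400 recomputed member folds, 7 changed sign, among Mttp, Dgat1, Apoc3 and Mogat2, all of them folds under 2-fold. Many of the 400 could not change sign. The filter choices, the 1.5-fold threshold and the interval rule leave each fold as it was, and a pseudocount cannot turn its sign. No paired analysis was possible because each group has 1 library, and for the same reason no library of a group could be left out. Depth limits Fabp1 in control, where 2 counts leave its ratios with wide bounds.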

Other observations

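Among genes that act on chylomicron triglyceride in the capillary bed, a step after export, the counts differed from those of the members. Of 6 measured in PCI34051+NEC against NEC, none was at least 2-fold higher and 4 were lower, with a median log2 fold of -1.07. Of all measured genes, 25.0% were called higher and 25.6% lower in that comparison. Lpl, the lipase that frees fatty acids from chylomicrons, had 9.46 CPM in the PCI34051+NEC, 32.1 CPM in the NEC and 5.79 CPM in the control library. Gpihbp1, which holds that lipase on capillary endothelium, had 12.5, 26.0 and 4.15 CPM, and Angptl8 had 10.8, 24.8 and 15.0 CPM. Angptl4, an inhibitor of the lipase, was high in both libraries of the model, at 79.9 CPM with PCI34051 and 58.0 CPM in NEC, against 7.74 CPM in control. In NEC against control 3 of 6 were at least 2-fold higher, and in PCI34051+NEC against control 2 of 5, with Angptl4 farthest apart in both. Among all measured genes, 24.2% were called higher in NEC against control and 6.55% in PCI34051+NEC against control. Markers of other cell types were mixed, and some of them were also highest in NEC. The fat and endothelial gene Fabp4 had 48.8, 110.0 and 17.4 CPM, and the lymphatic gene Flt4 had 12.7, 29.96 and 6.54 CPM in the PCI34051+NEC, NEC and control libraries. The fat gene Plin1 had 0, 20 and 0 counts, and the smooth muscle markers summed to 1258, 10561 and 1228 CPM. Other markers of fat and endothelium were highest with PCI34051. Among them were Lyve1 (22.9, 8.40 and 8.24 CPM), Kdr (34.7, 26.9 and 25.6 CPM) and Cidec (318, 84.3 and 144 CPM). The endothelial markers summed to 126, 138 and 105 CPM. The part of these cell types in the Lpl and Gpihbp1 values was not tested.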
